A study of Homo sapiens with 6 samples.

Results

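The lysosome and autophagy genes described here are 37 named genes of 12010 genes listed in the deposited data. They were taken by symbol and cover lysosomal enzymes, lysosomal membrane and sterol transport proteins, subunits of the lysosomal proton pump, and the machinery of autophagy. All 37 were listed and all 37 passed the filter on low values. The cells were 92.1, an established line from a human uveal melanoma, a tumour of the pigmented tissue of the eye. In 3 libraries the cells had been treated for 24 h with 0.1 µM LBH589 (panobinostat, an inhibitor of histone deacetylases), and in 3 libraries for the same time with DMSO, its solvent. The line is a single cell line, and the labels name no separate cultures, so the p-values measure the spread between these libraries, which may be technical.

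Lysosomes are acidic compartments in which hydrolases break down proteins, glycans and lipids. A proton pump, the V-ATPase, acidifies them, and membrane proteins protect the boundary and export the products. Autophagy delivers cytoplasm to them: kinase and lipid kinase complexes start a membrane, conjugation enzymes attach ATG8 proteins such as LC3 to it, receptors such as SQSTM1 load cargo, and the closed vesicle fuses with the lysosome. Transcription factors of the MiT/TFE family (MITF, TFEB, TFE3 and TFEC) bind a promoter sequence shared by many of these genes, the CLEAR element, which holds the E-box CACGTG. In pigment cells MITF also drives melanin genes, and the melanosome is itself a relative of the lysosome.

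Levels are FPKM, fragments scaled to transcript length and to the mapped fragments of the library, summed over the listed transcripts of a gene. The files hold no read counts, so the depth of each library is unknown. FPKM sums lay between 397174 and 422630 in the DMSO libraries and between 355148 and 367222 in the LBH589 libraries. Mitochondrially encoded genes held 35.8, 45.7 and 43.9% of the sums in DMSO replicates 1, 2 and 3, and 35.1 to 37.3% in the LBH589 libraries. Of 7 melanocyte markers, 7 were listed and 6 fell. Their summed level was 2530 to 2670 FPKM in DMSO libraries and 718 to 774 FPKM in LBH589 libraries, and PMEL was the marker that did not pass (adjusted p = 0.239, limma). DCT, 1 of the 6 that fell, passed the filter on low values only through the DMSO group, so its call had to be a fall. In the DMSO libraries the markers SOX10, MLANA and TYR were at 69.4 ± 18.3, 244 ± 12.9 and 116 ± 4.94 FPKM, while DCT was low at 3.32 ± 0.0850 FPKM. With LBH589 SOX10, MLANA and TYR were at 0.688 ± 0.244, 16.7 ± 0.682 and 9.56 ± 1.19 FPKM (SD, n = 3). Of 8 leukocyte and macrophage markers only CD68, itself a lysosomal protein, was listed, at 13.9 ± 2.63 and 10.1 ± 2.99 FPKM (SD, n = 3). Of 7 fibroblast markers 3 were listed with sums of 2.32 ± 0.583 and 5.25 ± 0.883 FPKM, and of 6 epithelial markers 3 were listed with sums of 7.15 ± 1.53 and 10.31 ± 1.451 FPKM (SD, n = 3). The part of the fall in pigment genes and of these low markers in the results below was not tested. In bulk RNA, fewer cells of a type and less RNA per cell cannot be told apart.

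Of the 37 genes, 14 rose with LBH589, 3 fell and 20 did not pass the test. The test was limma on log2(FPKM + 1) with Benjamini-Hochberg adjustment over 11520 genes, called at adjusted p below 0.05. A log2 fold change below is the difference of mean log2(FPKM + 1), LBH589 minus DMSO, which understates the change of low genes. LBH589 changed much of the transcriptome: 48.8% of all tested genes were called, 27.2% as risen and 21.6% as fallen. Among the 37 genes, 37.8% rose and 8.11% fell, and the share called in either direction, 45.9%, was near that of all genes. The counts by role below stand beside the same shares of all tested genes, 27.2% risen and 21.6% fallen. The median log2 fold change was 0.42 over the 37 genes and 0.08 over all tested genes. Levels of the 2 groups did not overlap in 21 of the 37 genes, and did not overlap in 59.5% of all tested genes. The count of rises moved most with 1 library: without LBH589 replicate 3, 9 genes rose and 3 fell.

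**Figure D1:**
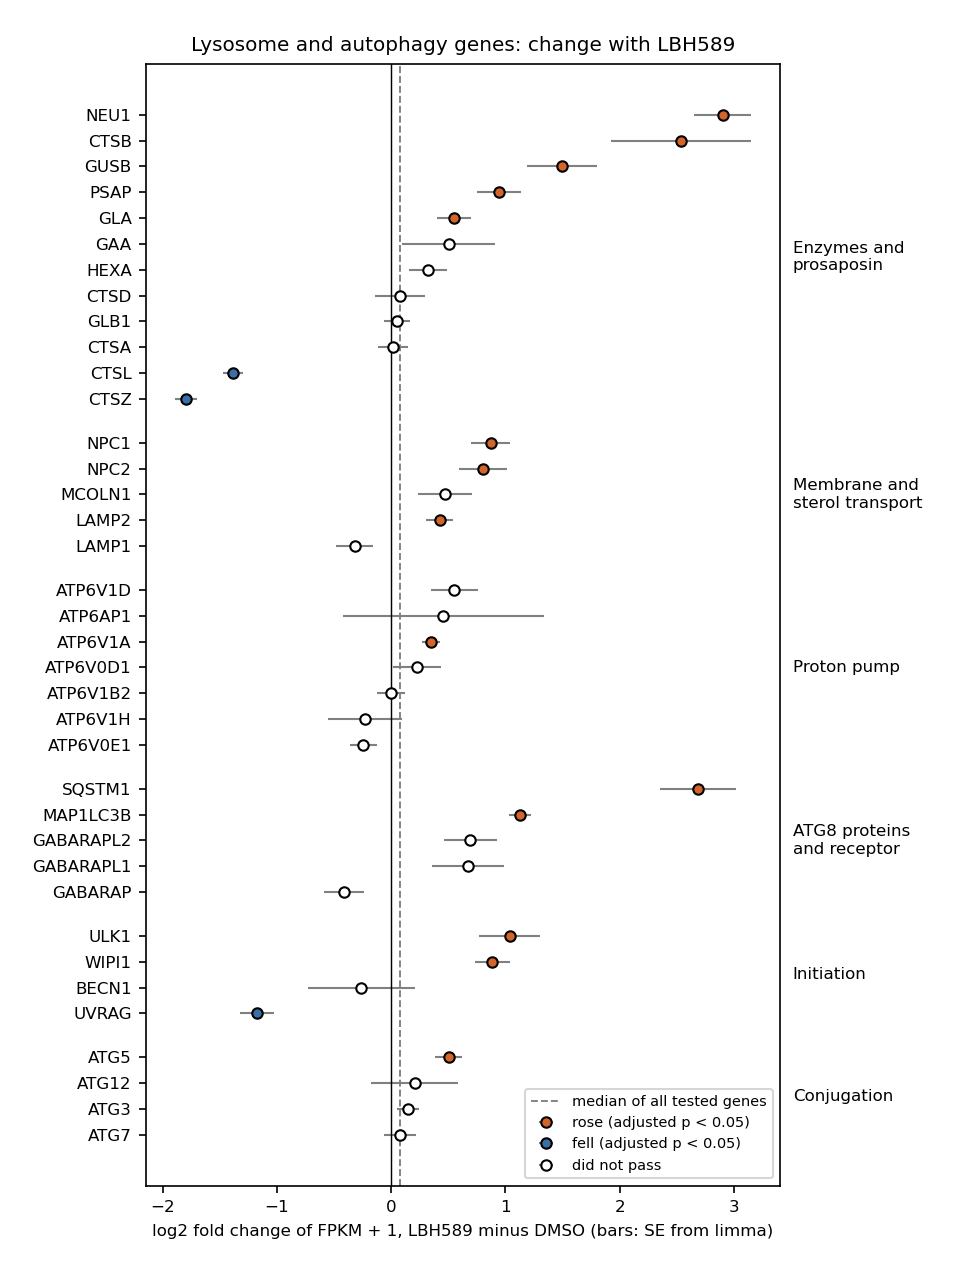
Log2 fold change of FPKM + 1, LBH589 minus DMSO, for each of the 37 genes, grouped by role; bars are the standard error from limma and filled points passed adjusted p below 0.05. NEU1, SQSTM1 and CTSB lie furthest to the right (2.90, 2.69 and 2.54), CTSZ, CTSL and UVRAG furthest to the left (-1.80, -1.38 and -1.18), and the dashed line marks the median of all tested genes, 0.08.

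Of the genes among the 37 whose promoter window held an E-box, NEU1 alone passed the test. RefSeq promoter windows of the build GRCh38.p14, from 250 bases before to 50 bases after the start, were found for 28 of the 37 genes. The palindromes CACGTG and TCACGTGA and the palindromic CLEAR element were searched on both strands, each longer one containing the shorter. CACGTG was present in 8 of the 28 windows (28.6%), against 8.77% of all 27305 windows and 12.9% of the 9210 windows of tested genes. TCACGTGA was present in 6 of the 28 (21.4%), against 2.36% of the windows of tested genes, and the CLEAR element in 2 (7.14%), against 0.923%. Of the 8 genes with CACGTG, 1 rose (NEU1) and none fell, with 22.1% risen and 27.9% fallen among all tested genes with that sequence. The other 7, which did not pass the test, were LAMP1, MCOLN1, GAA, CTSA, CTSD, ATP6V0D1 and ATG3. Outside the 37, among the other pathway genes described below, 29 tested genes had CACGTG, of which 8 rose (27.6%) and 3 fell (10.3%). The NEU1 stretch is printed because NEU1 was the called gene with a match. The other 4 have several matches each, did not pass the test, and were chosen after their values were seen. Capitals mark CACGTG, each stretch is read 5′ to 3′ on the gene's strand, and all end before the RefSeq start. The LAMP1 window holds 6 matches, of which 5 are in the printed stretch, and the other begins at its last base and runs past the start. The NEU1 stretch lies at chr6:31862912-31862971 (minus strand), LAMP1 at chr13:113297039-113297238, MCOLN1 at chr19:7522564-7522623, GAA at chr17:80101491-80101555 and CTSA at chr20:45891291-45891320 (plus strand).
NEU1: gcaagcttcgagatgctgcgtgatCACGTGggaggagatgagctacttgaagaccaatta
LAMP1: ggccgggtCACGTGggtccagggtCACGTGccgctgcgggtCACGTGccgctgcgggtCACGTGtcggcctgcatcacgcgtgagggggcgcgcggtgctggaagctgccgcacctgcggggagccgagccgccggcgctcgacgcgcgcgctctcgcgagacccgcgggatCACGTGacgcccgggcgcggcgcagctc
MCOLN1: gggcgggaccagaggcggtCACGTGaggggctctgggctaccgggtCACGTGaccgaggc
GAA: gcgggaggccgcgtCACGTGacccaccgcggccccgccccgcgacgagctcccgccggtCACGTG
CTSA: gtCACGTGgcgccggagttCACGTGactcg
A match is a description of these letters and not a measured binding site.

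The lysosomal enzymes and prosaposin moved in both directions. Of 12, 5 rose (NEU1, CTSB, GUSB, PSAP and GLA), 2 fell (CTSL and CTSZ) and 5 did not pass, with a median log2 fold change of 0.41. NEU1, the sialidase that removes terminal sialic acids, had levels of 28.0, 17.2 and 14.7 FPKM with DMSO and 132, 146 and 177 FPKM with LBH589, in the order of the replicate numbers, which is kept below. The groups were far apart, and the means of 19.97 ± 7.034 and 151 ± 23.03 FPKM (SD, n = 3) differed 7.59-fold (log2 fold change 2.90, SE 0.25, limma adjusted p = 2.78e-04). NEU1 has 1 listed transcript, and its promoter stretch above holds 1 E-box.

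CTSB encodes cathepsin B, a cysteine protease. Its level was 20.1, 18.6 and 95.6 FPKM in the DMSO libraries and 191, 204 and 197 FPKM in the LBH589 libraries. The LBH589 libraries lay close together, while DMSO replicate 3 stood between them and the other DMSO libraries. Means were 44.7 ± 44.04 and 197 ± 6.54 FPKM (SD, n = 3; log2 fold change 2.54, SE 0.61, limma adjusted p = 0.0158). The transcripts, looked at after this was seen, differed in the same way: CTSB-228 had values of 0, 0 and 91.9 FPKM with DMSO and of 182, 195 and 189 FPKM with LBH589. In DMSO replicates 1 and 2 another transcript, CTSB-202, made up 84.4 and 77.8% of CTSB FPKM, and in the other 4 libraries CTSB-228 made up over 95% of it (95.3 to 96.1%). The difference of CTSB-228 itself did not pass (adjusted p = 0.119 over transcripts, limma). The call for the gene was lost without DMSO replicate 1 (adjusted p = 0.0504) and without LBH589 replicate 3 (0.0503), and without DMSO replicate 3 the log2 fold change was 3.29 (adjusted p = 2.19e-04).

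PSAP encodes prosaposin, the precursor of the saposins that help lipid hydrolases reach their substrates. It had the highest level of the 37 genes in both groups, at 443, 382 and 278 FPKM with DMSO and 691, 771 and 629.6 FPKM with LBH589. PSAP-206, a transcript of 500 bases, made up 53.7 to 67.5% of PSAP FPKM in each library. The first rank depends on this short transcript, as FPKM is per length. Of the 4 listed transcripts only PSAP-202 passed (adjusted p = 0.0250 over transcripts, limma), and PSAP-206 did not (0.0571). The groups did not overlap, and the means of 368 ± 83.8 and 697 ± 71.1 FPKM (SD, n = 3) differed 1.90-fold (log2 fold change 0.94, SE 0.19, limma adjusted p = 0.00870). GUSB, a glucuronidase that acts on glycosaminoglycans, was low at 1.86, 1.66 and 1.43 FPKM with DMSO and rose to 4.30, 10.9 and 5.60 FPKM with LBH589 (log2 fold change 1.497, SE 0.31, adjusted p = 0.00850). GUSB has pseudogene copies, and how reads shared with copies were counted is not given in the sources used here, so its level is uncertain. GLA, the galactosidase missing in Fabry disease, was at 12.4 ± 1.12 FPKM with DMSO and 18.7 ± 3.11 FPKM with LBH589 (SD, n = 3; log2 fold change 0.55, adjusted p = 0.0222). Its call was lost without DMSO replicate 2 (0.0646), DMSO replicate 3 (0.0610), LBH589 replicate 1 (0.0657) or LBH589 replicate 3 (0.0623).

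Both falls among the enzymes were cysteine cathepsins. CTSZ, a carboxypeptidase, was at 377, 358 and 352 FPKM with DMSO, the level second to PSAP, and at 106, 108 and 96.55 FPKM with LBH589. The groups were separate by a wide gap, 3.496-fold between the means of 362 ± 13.3 and 104 ± 6.17 FPKM (SD, n = 3; log2 fold change -1.80, SE 0.09, limma adjusted p = 5.05e-05). CTSL, an endopeptidase, was at 101, 91.3 and 91.7 FPKM with DMSO and at 35.2, 36.9 and 34.9 FPKM with LBH589, 2.65-fold lower (log2 fold change -1.38, SE 0.09, adjusted p = 8.74e-05). Of the listed transcripts of CTSL, CTSL-201 and CTSL-203 both fell (log2 fold changes -1.53 and -1.31, adjusted p = 0.0109 and 0.00158 over transcripts). Cathepsins thus went both ways in the same libraries, CTSB up and CTSL and CTSZ down.

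The other 5 enzymes had no detectable difference at this spread. CTSA, a carboxypeptidase that also protects NEU1 and the galactosidase GLB1 in a complex, was at 30.4 ± 4.77 and 30.5 ± 1.79 FPKM (SD, n = 3; adjusted p = 0.944), while its partner NEU1 rose. GLB1 was at 14.7 ± 1.73 and 15.2 ± 0.624 FPKM (adjusted p = 0.751) and the aspartic protease CTSD at 18.4 ± 4.39 and 19.3 ± 3.86 FPKM (SD, n = 3; adjusted p = 0.795). HEXA, a hexosaminidase subunit, was at 12.8 ± 2.86 and 16.04 ± 0.914 FPKM (SD, n = 3; adjusted p = 0.152), and it passed without DMSO replicate 1 (0.0153). GAA, which breaks down glycogen, varied from 1.36 to 3.29 FPKM with DMSO and from 1.93 to 6.83 FPKM with LBH589 (adjusted p = 0.348).

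**Figure D2:**
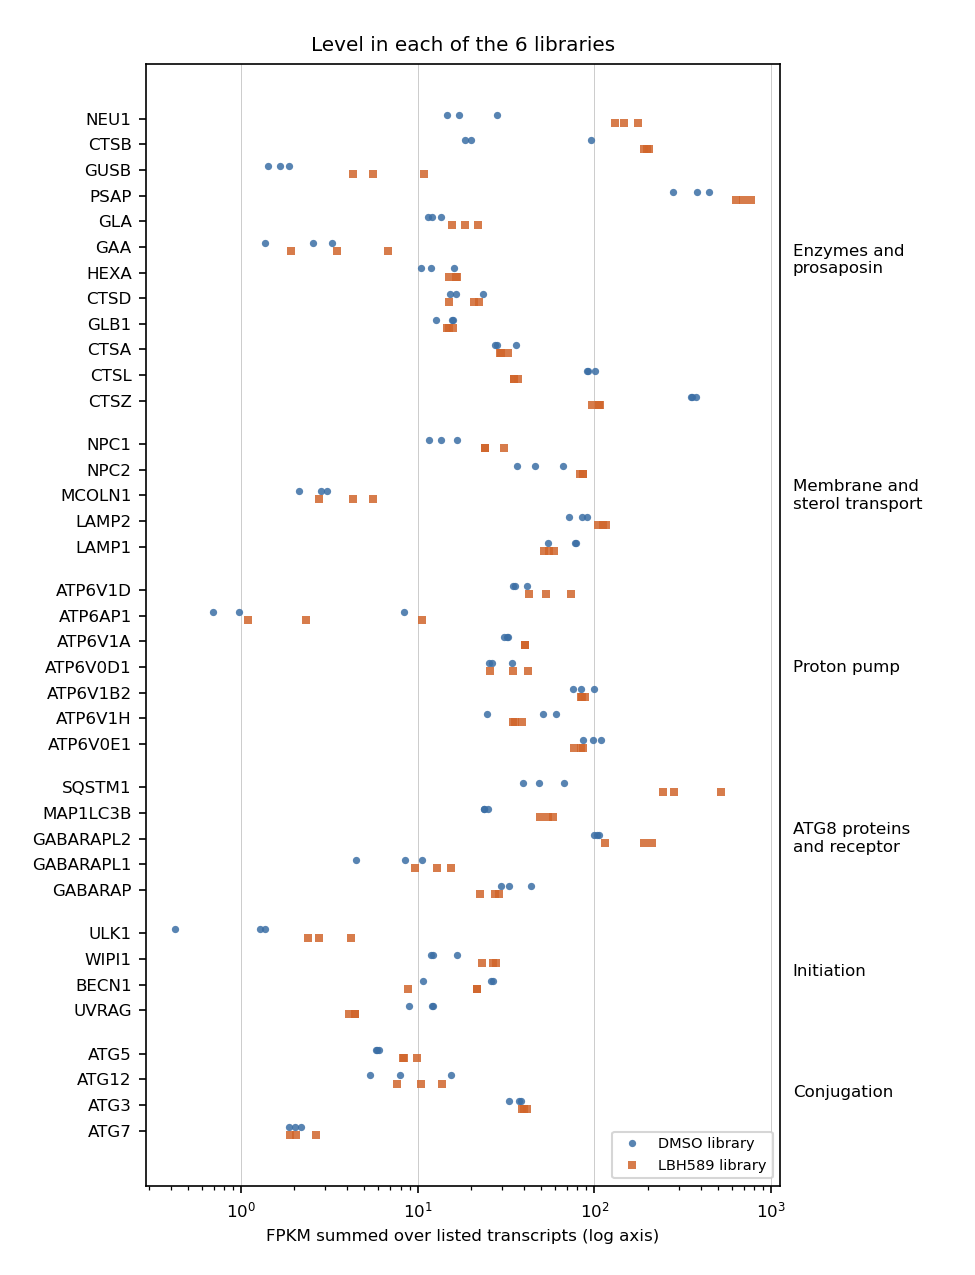
FPKM of each of the 37 genes in each library (log axis), DMSO libraries as circles and LBH589 libraries as squares, with genes grouped by role. NEU1, SQSTM1, MAP1LC3B, CTSL and CTSZ have wide gaps between the groups, CTSB has 1 DMSO library (95.6 FPKM) between the others and the LBH589 libraries, and ATP6AP1 varies from 0.694 to 10.6 FPKM with no separation.

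Of the 5 membrane and sterol transport genes, 3 rose (NPC1, NPC2 and LAMP2) and none fell. NPC1, the membrane protein that exports cholesterol from the lysosome, was at 16.8, 13.5 and 11.6 FPKM with DMSO and at 24.0, 24.1 and 30.8 FPKM with LBH589. The groups did not overlap (14.0 ± 2.63 and 26.3 ± 3.89 FPKM, SD, n = 3; log2 fold change 0.87, SE 0.17, limma adjusted p = 0.00697). NPC2, the soluble protein that hands cholesterol to NPC1, was at 66.0, 46.0 and 36.5 FPKM with DMSO and 86.1, 86.2 and 82.5 FPKM with LBH589 (log2 fold change 0.81, SE 0.21, adjusted p = 0.0212). Both partners were thus higher in each LBH589 library than in any DMSO library. The call for NPC2 was lost when DMSO replicate 2 or LBH589 replicate 1, 2 or 3 was left out (adjusted p = 0.0630, 0.0614, 0.0638 and 0.0581).

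LAMP1 and LAMP2, the abundant glycoproteins that line the lysosomal membrane, had fold changes of opposite sign, and LAMP2 passed the test. LAMP2 was at 71.9, 85.6 and 90.8 FPKM with DMSO and 116, 105 and 112 FPKM with LBH589 (log2 fold change 0.42, SE 0.12, limma adjusted p = 0.0251). Its call did not hold without DMSO replicate 2 (0.0527) or LBH589 replicate 1 (0.0874), 2 (0.0507) or 3 (0.0726). LAMP1 was at 54.4, 77.9 and 79.1 FPKM with DMSO and 55.5, 51.9 and 59.0 FPKM with LBH589 (log2 fold change -0.32, adjusted p = 0.159). The groups overlapped through DMSO replicate 1, and without that library LAMP1 passed as lower (log2 fold change -0.49, adjusted p = 0.00810). MCOLN1, a calcium channel of the lysosomal membrane whose promoter stretch above holds 2 E-boxes, was at 2.69 ± 0.495 and 4.22 ± 1.43 FPKM (SD, n = 3; adjusted p = 0.154), and passed as higher without LBH589 replicate 2 (0.0474).

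LAMP2 makes 3 proteins that differ in their membrane anchor and tail: LAMP2A, the receptor of chaperone-mediated autophagy, LAMP2B and LAMP2C. LAMP2B was listed at 38.7, 38.1 and 46.5 FPKM with DMSO and 48.6, 44.7 and 47.8 FPKM with LBH589, overlapping between the groups (adjusted p = 0.320 over transcripts, limma). LAMP2A was at 14.4, 13.3 and 17.1 FPKM with DMSO and 34.7, 19.2 and 60.8 FPKM with LBH589, higher in each LBH589 library but with a spread that did not pass (log2 fold change 1.16, adjusted p = 0.131). LAMP2C was at 18.8, 34.2 and 27.2 FPKM with DMSO and 33.1, 40.9 and 2.98 FPKM with LBH589 (adjusted p = 0.723). The LBH589 library with the highest LAMP2A, replicate 3, had the lowest LAMP2C. The sum of LAMP2A and LAMP2C, which was not tested, was 41.7 ± 7.51 and 63.9 ± 3.88 FPKM (SD, n = 3).

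**Figure D3:**
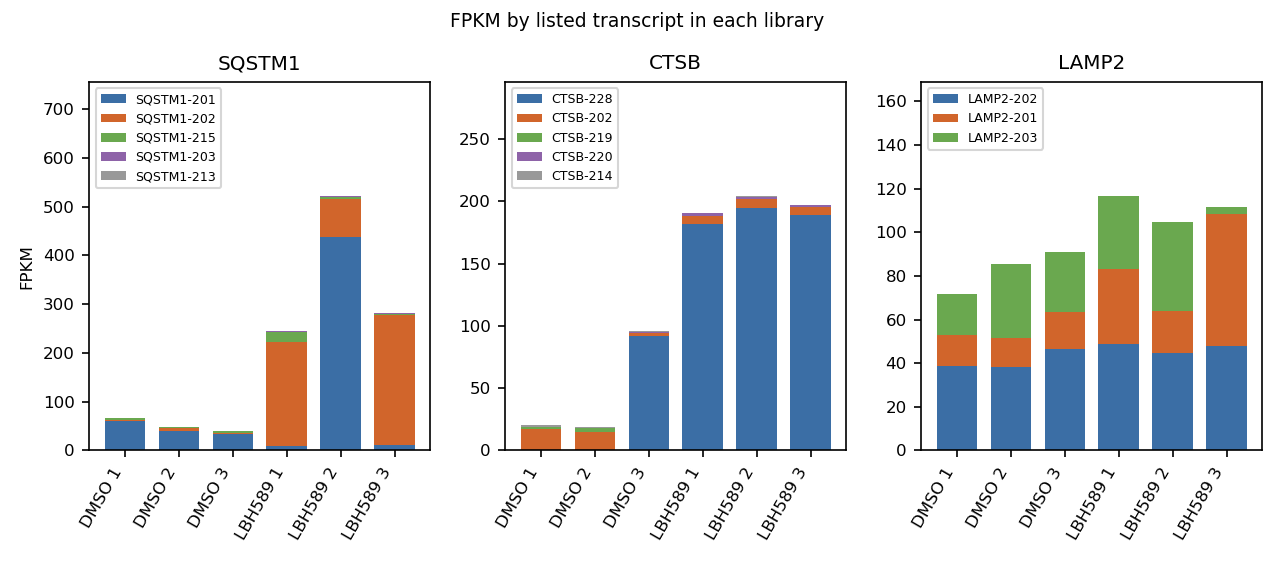
FPKM of the listed transcripts of SQSTM1, CTSB and LAMP2 stacked in each library, LAMP2-201, LAMP2-202 and LAMP2-203 being LAMP2A, LAMP2B and LAMP2C; SQSTM1 and CTSB were chosen after their values were seen. SQSTM1-201 is the main SQSTM1 transcript in LBH589 replicate 2 and SQSTM1-202 in LBH589 replicates 1 and 3, and CTSB-228 is listed at 0 in DMSO replicates 1 and 2.

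Of 7 proton pump subunits, 1 rose (ATP6V1A), none fell and 6 did not pass, and the summed level was 331 ± 49.6 FPKM with DMSO and 339.9 ± 15.5 FPKM with LBH589 (SD, n = 3). ATP6V1A, the catalytic subunit that splits ATP, was at 30.8, 32.0 and 32.3 FPKM with DMSO and 40.3, 40.7 and 40.5 FPKM with LBH589. This 1.28-fold difference was small but larger than the spread of either group (log2 fold change 0.34, SE 0.08, limma adjusted p = 0.0124). The partner subunit ATP6V1B2 was at 86.2 ± 11.8 and 85.5 ± 2.48 FPKM (SD, n = 3; adjusted p = 0.992). ATP6V1D, part of the central stalk, was at 41.6, 35.6 and 34.7 FPKM with DMSO and 53.4, 42.6 and 73.4 FPKM with LBH589, without overlap but with a wide spread (log2 fold change 0.55, adjusted p = 0.0689). It passed without LBH589 replicate 2 (0.0278). ATP6V0D1 and ATP6V0E1, of the membrane sector, had log2 fold changes of 0.22 and -0.24 (adjusted p = 0.422 and 0.141). ATP6V1H, a regulatory subunit, was at 61.0, 51.3 and 24.7 FPKM with DMSO and 38.8, 35.4 and 34.8 FPKM with LBH589 (adjusted p = 0.598), and without DMSO replicate 3 it passed as lower (log2 fold change -0.61, adjusted p = 0.0117). ATP6AP1, an accessory subunit, varied widely among libraries of a group, from 0.694 to 8.39 FPKM with DMSO and 1.10 to 10.6 FPKM within the LBH589 group, so a difference was not detectable (SE 0.88, adjusted p = 0.702).

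Among the ATG8 proteins and SQSTM1, 2 of 5 rose and none fell. SQSTM1, also called p62, binds ubiquitinated cargo and ATG8 proteins and is itself degraded by autophagy. It was at 67.2, 48.4 and 39.5 FPKM with DMSO and 245, 521 and 282 FPKM with LBH589. Each LBH589 library exceeded each DMSO library by over 3-fold, and the means of 51.7 ± 14.2 and 349 ± 150.1 FPKM (SD, n = 3) differed 6.76-fold (log2 fold change 2.69, SE 0.33, limma adjusted p = 0.00114). SQSTM1 stood 9th of the 37 genes by mean level with DMSO and 2nd with LBH589. Its transcripts were divided unevenly: SQSTM1-201 was at 59.5, 40.1 and 34.5 FPKM with DMSO and 9.05, 437 and 10.6 FPKM with LBH589. SQSTM1-202 was at 3.53, 5.66 and 2.15 FPKM with DMSO and 214, 78.1 and 268 FPKM with LBH589 (log2 fold change 5.18, adjusted p = 0.00358 over transcripts). SQSTM1-201 had the higher mean over the libraries, and a fit that kept only this transcript gave a change of -0.26 on the log2 scale (adjusted p = 0.916).

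The 4 ATG8 genes did not move as one. MAP1LC3B, which encodes LC3B, the usual marker protein of autophagic vesicles, was at 25.1, 23.7 and 23.6 FPKM with DMSO and 58.0, 49.4 and 54.5 FPKM with LBH589. The groups were well apart, at 24.1 ± 0.794 and 54.0 ± 4.31 FPKM (SD, n = 3; log2 fold change 1.13, SE 0.10, limma adjusted p = 2.45e-04). MAP1LC3B2 is a near-identical copy of this gene, so how shared reads were divided is uncertain. GABARAPL2 was the most abundant of the 4, at 106, 99.2 and 103 FPKM with DMSO and 212, 115 and 191 FPKM with LBH589. Its groups did not overlap but it missed the threshold (log2 fold change 0.69, adjusted p = 0.0507), and it passed without LBH589 replicate 2 (log2 fold change 0.96, adjusted p = 0.00301). GABARAPL1 was at 7.84 ± 3.11 and 12.6 ± 2.95 FPKM (SD, n = 3; adjusted p = 0.128). GABARAP was at 43.8, 32.9 and 29.7 FPKM with DMSO and 28.8, 27.4 and 22.5 FPKM with LBH589, the one of the 4 lower in each LBH589 library, and did not pass (log2 fold change -0.41, adjusted p = 0.100). Its transcript GABARAP-204, named after its values were seen, fell from 7.48 ± 1.84 to 0.909 ± 0.0666 FPKM (SD, n = 3; adjusted p = 0.00331 over transcripts).

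Of the 4 initiation genes, 2 rose (ULK1 and WIPI1), 1 fell (UVRAG) and 1 did not pass (BECN1). ULK1, the kinase that starts autophagy, was the lowest of the 37 genes with DMSO, at 1.36, 1.28 and 0.424 FPKM, and was at 2.40, 2.75 and 4.22 FPKM with LBH589 (log2 fold change 1.04, SE 0.27, limma adjusted p = 0.0199). The groups did not overlap, and the call was lost without LBH589 replicate 3 (adjusted p = 0.0594). WIPI1, which binds the lipid made at the forming membrane, was at 16.6, 11.95 and 12.2 FPKM with DMSO and 26.5, 23.1 and 27.6 FPKM with LBH589 (log2 fold change 0.89, SE 0.16, adjusted p = 0.00445). BECN1, the Beclin 1 subunit of the lipid kinase complex, was at 26.6, 10.7 and 26.04 FPKM with DMSO and 8.87, 21.6 and 21.7 FPKM with LBH589, so that the groups overlapped (adjusted p = 0.682).

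UVRAG, a Beclin 1 partner that acts in vesicle maturation, was at 12.2, 8.90 and 12.1 FPKM with DMSO and 4.06, 4.42 and 4.40 FPKM with LBH589. It was lower in each LBH589 library, 2.58-fold between the means of 11.1 ± 1.88 and 4.29 ± 0.199 FPKM (SD, n = 3; log2 fold change -1.18, SE 0.15, limma adjusted p = 0.00118). The transcript UVRAG-201, the most abundant, was at 3.76, 7.86 and 2.94 FPKM with DMSO and 4.05, 4.42 and 4.40 FPKM with LBH589, and its own change was -0.06 on the log2 scale (adjusted p = 0.913). UVRAG-207 was at 8.15, 1.03 and 4.98 FPKM with DMSO and was listed at 0.0125 FPKM in LBH589 replicate 1 and at 0 in the others (adjusted p = 0.0527 over transcripts). These 2 transcripts were named after their values were seen.

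Of the 4 conjugation genes, 1 rose (ATG5) and none fell. ATG5, which joins ATG12 to form the complex that attaches ATG8 proteins to lipid, was at 5.90, 5.84 and 6.02 FPKM with DMSO and 9.89, 8.32 and 8.29 FPKM with LBH589 (log2 fold change 0.50, SE 0.12, limma adjusted p = 0.0125). The groups did not overlap, and without LBH589 replicate 1 the adjusted p was 0.0504. ATG3, the enzyme that transfers ATG8 proteins, was at 32.9 to 38.7 FPKM with DMSO and 39.0 to 41.6 FPKM with LBH589, separate but with a log2 fold change of 0.14 (adjusted p = 0.265). ATG7, the activating enzyme, was low and overlapped between groups, at 1.86 to 2.18 and 1.90 to 2.64 FPKM (adjusted p = 0.694). ATG12 ranged from 5.40 to 15.4 FPKM with DMSO and from 7.59 to 13.7 FPKM with LBH589 (adjusted p = 0.691).

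Of 116 listed transcripts of the 37 genes, 103 were tested, 9 rose and 5 fell, where 8.62% of 27042 tested transcripts rose and 7.33% fell. Of the 17 called genes, 10 had at least 1 called transcript. For CTSB this was CTSB-220 alone, at most 0.963% of CTSB FPKM in a library. It was at 0, 0 and 0.542 FPKM with DMSO and 1.84, 1.56 and 1.20 FPKM with LBH589. CTSB-220 passed the filter of a mean of 0.5 FPKM only through the LBH589 group, so its call had to be a rise. Some called transcripts belong to genes that did not pass: ATP6V1D-201, which rose, and ATP6V1H-201 and GABARAP-204, which fell. ATP6V1D-201 was at 17.4 ± 1.43 and 31.3 ± 6.52 FPKM and ATP6V1H-201 at 6.19 ± 2.82 and 1.29 ± 0.354 FPKM (SD, n = 3; limma adjusted p = 0.0385 and 0.0417 over transcripts). No gene had transcripts called in both directions. Where only the most abundant transcript of each gene was fitted, the calls of CTSB, LAMP2 and ATG5 were lost as well as those of SQSTM1 and UVRAG (adjusted p = 0.0804, 0.217 and 0.704 for the first 3, limma).

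Other genes of the same pathways were taken from lists by role. Of 168 such genes, 157 were listed and 156 tested, and 54 rose (34.6%), 16 fell (10.3%) and 86 did not pass, beside 27.2 and 21.6% of all tested genes. Their median log2 fold change was 0.32. Among 34 other hydrolases 11 rose and 5 fell: FUCA1, a fucosidase, rose from 4.99 ± 0.531 to 24.5 ± 1.30 FPKM, LIPA, the acid lipase that frees cholesterol from its esters, rose from 36.1 ± 1.42 to 128 ± 5.28 FPKM, and GALC, a galactosylceramidase, fell from 8.80 ± 0.0719 to 2.76 ± 0.208 FPKM (SD, n = 3; limma adjusted p = 5.32e-05, 3.85e-05 and 1.99e-04). Among 18 other membrane proteins 4 rose and 5 fell, with a median of -0.30. In this list and in that of the other hydrolases, 1 of the 5 falls passed the filter of a mean of 0.5 FPKM only through the DMSO group. Those calls had to be falls. The amino acid transporter SLC36A1 rose from 1.66 ± 0.351 to 6.87 ± 1.72 FPKM, and the chloride transporter CLCN7 and TMEM192 fell from 8.93 ± 1.93 to 2.84 ± 0.605 FPKM and from 15.1 ± 0.892 to 5.21 ± 0.783 FPKM (SD, n = 3; adjusted p = 0.00133, 0.00227 and 4.05e-04). Of 10 genes that sort enzymes to the lysosome, none rose and 1 fell, GNPTAB, which starts the mannose-6-phosphate tag (35.5 ± 3.79 and 27.7 ± 0.867 FPKM, SD, n = 3; adjusted p = 0.0380). The GNPTAB call did not hold without DMSO replicate 2 or 3 (0.111 and 0.0920) or without any LBH589 library (0.0845 to 0.108). GNPTG and SUMF1, next by adjusted p, did not pass (0.196 and 0.104). They passed as higher without LBH589 replicate 3 (GNPTG, 0.0304) and without DMSO replicate 1 (SUMF1, 0.0355).

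Among 14 other proton pump subunits 4 rose (28.6%) and 1 fell (7.14%), beside 27.2 and 21.6% of all tested genes. The share of rises was thus near that of all genes. Rises included low alternative subunits: ATP6V1C2 was at 0.0714 ± 0.0435 and 3.22 ± 0.393 FPKM and ATP6V0E2 at 2.40 ± 1.33 and 10.1 ± 2.36 FPKM, and the fall was ATP6V0A4, at 1.21 ± 0.0692 and 0.447 ± 0.107 FPKM (SD, n = 3; limma adjusted p = 9.13e-05, 0.00529 and 0.00627). ATP6V1C2 passed the filter of a mean of 0.5 FPKM only through the LBH589 group, so its call had to be a rise. ATP6V0A4 passed it only through the DMSO group, so its call had to be a fall. Of 15 other ATG8 genes and cargo receptors 6 rose and none fell, among them the receptor CALCOCO2 (19.6 ± 2.26 and 91.4 ± 20.5 FPKM) and the mitophagy receptors BNIP3 (32.2 ± 5.49 and 113 ± 3.84 FPKM) and BNIP3L (56.2 ± 1.20 and 89.5 ± 9.47 FPKM, SD, n = 3; adjusted p = 2.48e-04, 1.57e-04 and 0.00300). Joined with SQSTM1 and the 4 ATG8 genes above, 8 of 20 rose (40%) and none fell. The share called in either direction, 40%, was below the 48.8% of all tested genes.

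Of 18 other initiation genes 10 rose (55.6%) and none fell, where 27.2% of all tested genes rose and 21.6% fell. RB1CC1, the scaffold of the ULK1 complex, was at 49.7 ± 5.90 and 109 ± 3.20 FPKM, ATG2A, which supplies lipid to the membrane, at 0.981 ± 0.429 and 3.24 ± 0.519 FPKM, and NRBF2, a subunit of the Beclin 1 complex, at 28.0 ± 2.14 and 37.6 ± 1.28 FPKM (SD, n = 3; limma adjusted p = 4.64e-04, 0.00526 and 0.0121). Of 7 other conjugation genes 5 rose and none fell, with a median of 0.80. They included the protease ATG4A (6.70 ± 0.836 and 18.5 ± 0.156 FPKM), ATG10, which attaches ATG12 to ATG5 (2.47 ± 0.295 and 8.06 ± 1.94 FPKM), and ATG16L2 (0.817 ± 0.184 and 3.36 ± 0.710 FPKM, SD, n = 3; adjusted p = 2.64e-04, 0.00152 and 0.00141). Another of the 5 rises passed the filter of a mean of 0.5 FPKM only through the LBH589 group. Its call had to be a rise. With the 4 initiation and 4 conjugation genes above, 12 of 22 initiation genes rose and 1 fell, and 6 of 11 conjugation genes rose and none fell. Of 14 fusion genes 5 rose (35.7%) and 1 fell (7.14%). VAMP8, a SNARE of vesicle fusion, was listed at 0 in the DMSO libraries and at 1.54, 1.18 and 1.44 FPKM in the LBH589 libraries (adjusted p = 3.31e-04), so it passed the filter of a mean of 0.5 FPKM only through the LBH589 group and the call adds nothing to that listing, and the tether subunit VPS39 was at 3.40 ± 0.964 and 6.87 ± 0.820 FPKM (SD, n = 3; adjusted p = 0.0113).

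**Figure D4:**
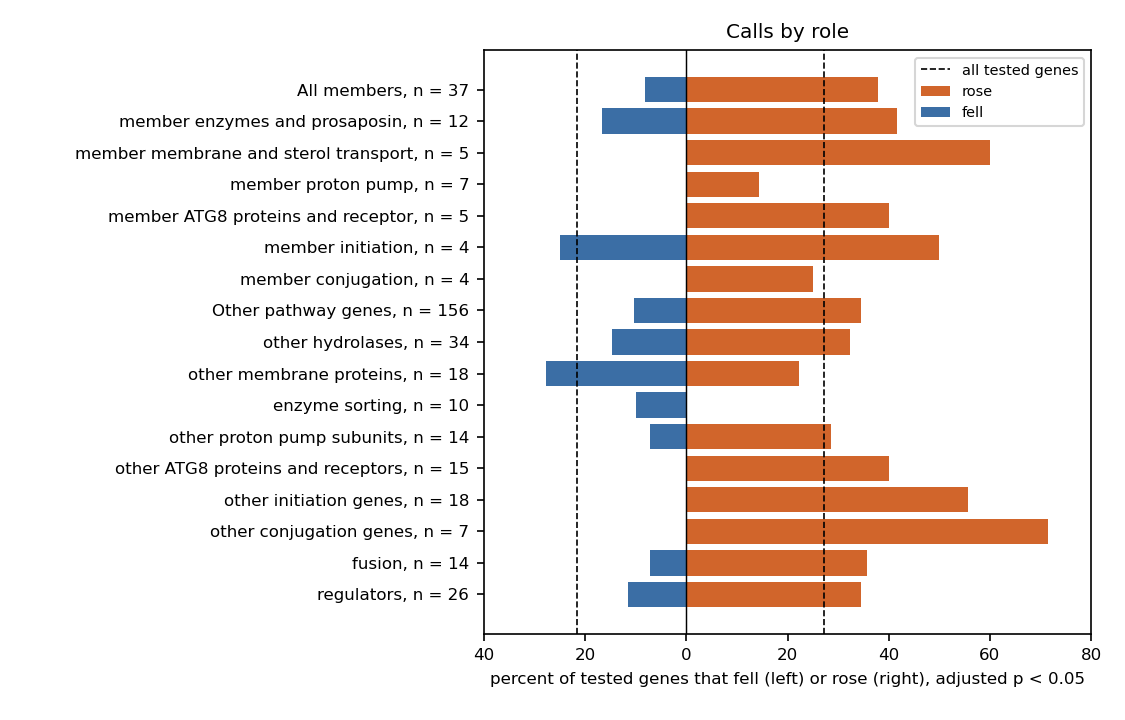
Percent of tested genes that rose (right) or fell (left) in each role list at adjusted p below 0.05, for the 37 genes and for the other pathway genes; n is the number tested and the dashed lines are the shares of all tested genes, 27.2% risen and 21.6% fallen. The other conjugation genes (5 of 7), the membrane and sterol transport genes among the 37 (3 of 5) and the other initiation genes (10 of 18) have the longest bars for rises, and the other membrane proteins (5 of 18) have the longest bar for falls. Several lists hold under 10 genes. Some counts of the other pathway genes, these rises of conjugation genes and falls of membrane proteins among them, include a gene that passed the filter on low values only through 1 group. That fixed the direction of its call.

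Among 26 regulators 9 rose (34.6%) and 3 fell (11.5%), beside 27.2 and 21.6% of all tested genes. The share called in either direction, 46.2%, was near the 48.8% of all tested genes. The MiT/TFE factors differed: MITF was at 84.1, 78.8 and 73.4 FPKM with DMSO and 12.3, 10.7 and 12.4 FPKM with LBH589, TFE3 rose from 2.74, 2.32 and 2.83 FPKM to 4.81, 7.81 and 4.26 FPKM (log2 fold change 0.83, limma adjusted p = 0.0219), and TFEB was low in all libraries, at 0.859, 0.0206 and 0 FPKM with DMSO and 0.397, 0.418 and 1.53 FPKM with LBH589 (adjusted p = 0.309). TFEC was looked for and was not among the genes listed in the deposited data. MITF fell by 2.64 on the log2 scale (adjusted p = 2.43e-05), although the change was 0.06 where only its most abundant transcript was kept (adjusted p = 0.979). The TFE3 call was lost without DMSO replicate 2 (0.0679). MITF was thus far above TFE3 and TFEB with DMSO and about 2-fold above TFE3 with LBH589, on FPKM, which is per length of transcript. FOXO1, a factor that activates autophagy genes, rose from 1.99 ± 0.0171 to 17.3 ± 1.20 FPKM, and FNIP2, which acts on the lysosomal nutrient-sensing GTPases, fell from 29.8 ± 4.18 to 9.71 ± 0.434 FPKM (SD, n = 3; adjusted p = 2.89e-05 and 2.40e-04). Among the other pathway genes named above, and besides MITF, 7 calls were lost where only the most abundant transcript was kept: CLCN7 (adjusted p = 0.911), ATP6V1C2 (0.166), RB1CC1 (0.259), ATG10 (0.843), VPS39 (0.924), GNPTAB (0.0771) and ATP6V0E2, whose change was then -0.25 (0.825).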

How the data were processed

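The deposited values are FPKM for single transcripts in each library, as the authors made them, per the file headers. The submitters' processing notes list Bowtie 0.12.2 and hg19. What computed FPKM is not given in the sources used here. Transcript identifiers were matched to GENCODE release 29 (30504 of 30624, 99.6%), and values were added up per gene. The test was limma 3.58.1 (R 4.3.3, statmod 1.5.0) on log2(FPKM + 1), with trend and robust moderation and treatment as its term, over 11520 genes of mean 0.5 FPKM or more, with Benjamini-Hochberg adjustment. Transcripts were tested likewise (27042). The procedure was also run on simulated data, whose outcome is not given here and is not used as support. The simulation drew independent noise for each gene, so it does not cover shifts shared by a library or the division of a gene among transcripts. It changed only a small set of better expressed genes, so it does not cover low genes or a change of much of the transcriptome. No pair of libraries shared more than 1 equal value above 0. The 37 genes and the MiT/TFE factors were named whatever their values, with up to 3 tested genes of the smallest adjusted p from each other list; 1 gene that this rule names is not reported here. The 37 genes and the lists were chosen with earlier results of these data known. Scaling, pseudocount, filter, threshold, moderation, a replicate block, the most abundant transcript and leaving out each library were tried as alternatives. Protein sequences were not used here.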

Additional observations from a re-analysis of the deposited data

How the results depend on the processing

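Of 17 called genes among the 37, 8 kept their call and direction in each alternative in which they were tested (CTSL, CTSZ, GUSB, MAP1LC3B, NEU1, NPC1, PSAP and WIPI1), and 11 kept it without each library in turn. Against 14 rises, 7 genes rose at adjusted p below 0.01 and 9 to 15 without a library, counts that can include gained genes; falls were 3 to 4 without a library. Rises among other pathway genes numbered 54, but 31 at adjusted p below 0.01, 32 with the most abundant transcript and 41 to 61 without a library, and falls 12 to 16 without a library. The genes called numbered 5617 of 11520 tested, and 4649 to 5657 without a library. With a mean of at least 5 FPKM they numbered 3590, of only 6866 tested. Of the transcripts of the 37 genes, 17 rose with libraries scaled to equal FPKM sums, 3 at adjusted p below 0.01 and 4 to 7 without a library. At a mean of at least 5 FPKM 46 of them were tested, against 103, and 3 fell. Falls numbered 3 at adjusted p below 0.01 and 4 to 6 without a library. Equal FPKM sums moved the median of all genes from 0.08 to 0.23 and that of the 37 genes to 0.57, with 17 risen and ATG3, ATP6V1D and GABARAPL2 gained; 65.2% of all calls were then rises, against 55.8%.

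Libraries with the same replicate number had no shared deviation from their group means (correlations -0.10, 0.02 and -0.04 for numbers 1 to 3). These correlations cannot show whether the libraries were prepared in pairs. With a replicate block, 10 of the 37 genes rose and 3 fell, the calls of ATP6V1A, GLA, LAMP2 and ULK1 were lost, and 5 transcripts rose and 3 fell.

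Log2 fold changes that changed sign with the most abundant transcript were GAA (-0.75), ATP6V1H (0.13), SQSTM1 (-0.26), GABARAPL1 (-0.10), ATP6V0E2 (-0.25) and MITF (0.060); the calls of CTSB, LAMP2, UVRAG and ATG5 were lost there. With scaling, ATP6V1B2 changed sign (0.18 with equal sums, 0.16 with quantiles, 0.040 with equal sums of genes that are not mitochondrially encoded), as did ATG7 (-0.072 with quantiles) and CTSA (-0.0045 with equal medians). Without a library, values crossed 0 for ATG12 (-0.10 to 0.58), ATG7 (-0.022 to 0.14), ATP6AP1 (-0.25 to 1.24), ATP6V1B2 (-0.089 to 0.10), ATP6V1H (-0.61 to 0.024), BECN1 (-0.67 to 0.14), CTSA (-0.056 to 0.13), CTSD (-0.038 to 0.26), and GLB1 (-0.044 to 0.11). The causes were not tested. Leaving out 1 library leaves 2 in its group.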

Other observations

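The order of levels among the 37 genes changed with treatment. By mean FPKM, PSAP stood first in both groups, a rank that depends on its short transcript PSAP-206. CTSZ went from 2nd to 7th and CTSL from 5th to 17th, while CTSB went from 12th to 3rd and NEU1 from 21st to 5th. The 12 enzymes and prosaposin summed to 982 ± 87.4 FPKM with DMSO and 1296 ± 71.4 FPKM with LBH589, and SQSTM1 with the 4 ATG8 genes to 222 ± 21.3 and 615 ± 93.4 FPKM (SD, n = 3). These sums were not tested.

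DMSO replicate 1 was the highest of the 3 DMSO libraries in 29 of the 37 genes (78.4%), against 45.3% of all tested genes. Mitochondrially encoded genes held 35.8% of the FPKM sum in this library, and 45.7 and 43.9% in DMSO replicates 2 and 3. The part of DMSO replicate 1 in the results was not tested beyond leaving it out, where 14 of the 37 genes rose and 4 fell. Within LBH589 the highest library was replicate 3 in 17 of the 37 genes (45.9%, against 37.5% of all tested genes), replicate 2 in 11 (29.7%, against 33.8%) and replicate 1 in 9 (24.3%, against 28.7%).

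In 10 of the 37 genes a transcript was listed at 0 in at least 1 library and at 5 FPKM or more in another, and 4 of these genes were called (CTSB, NPC2, PSAP and UVRAG). NPC2-201 was listed at 0 in DMSO replicate 3 and at 20.4 to 48.4 FPKM in the other 5 libraries. CTSD-207 was listed at 0 in DMSO replicates 2 and 3 and LBH589 replicate 1 and at 14.2 to 15.6 FPKM in the others.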
